A study of Mus musculus with 6 samples.

Results

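The genes of the endogenous opioid system were followed in forebrain RNA of mice exposed to water avoidance stress (WAS). The set was defined by gene symbol and holds the 3 peptide precursors Penk, Pdyn and Pnoc and the 4 receptors Oprm1, Oprd1, Oprk1 and Oprl1. These are 7 of the 23282 gene entries in the count files, and all 7 passed the filter on low counts that left 15237 genes for testing. Male C57BL/6J mice, adult and with no transgene or drug, stood for 1 h on a small platform in a basin. The basin was filled with water for the WAS group (3 mice) and was dry for the control group (3 mice). One hemisphere of the forebrain per mouse, without olfactory bulb and cerebellum, gave 1 library, and tissue was taken directly after the procedure. The comparison asks whether transcripts of the opioid system differ between the labelled groups at the end of an acute stressor.

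Opioid peptides are cut from long precursor proteins and act on receptors that couple to inhibitory G proteins, which lower cyclic AMP, open potassium channels and close calcium channels. Enkephalins, from Penk, act mainly on the delta and mu receptors (Oprd1, Oprm1), dynorphins, from Pdyn, on the kappa receptor (Oprk1), and nociceptin, from Pnoc, on its own receptor (Oprl1), which binds the classical opioids poorly. In the forebrain, Penk is most abundant in striatal projection neurons of the indirect pathway and Pdyn in those of the direct pathway, whereas Pnoc and Oprl1 are spread over many regions. The system is known for its part in pain relief, reward and the response to stressors.

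The precursors share a short coding core, and the core copies are shown because they separate the 3 members at the sequence level. A search of the coding sequence of the mouse transcripts (GENCODE, GRCm38) for the 4 core codons found 7 copies in Penk, 3 in Pdyn and 1 in Pnoc. Of the Penk copies, 6 are followed by the methionine codon of Met-enkephalin and 1 by the leucine codon of Leu-enkephalin. All 3 Pdyn copies are of the Leu-enkephalin kind. Capitals mark the 4 core codons, and the small letters are 6 bases before and 9 bases after them.
Penk, Met-enkephalin, codons 107 to 110: aaacggTACGGAGGCTTCatgaagaag
Penk, Leu-enkephalin, codons 231 to 234: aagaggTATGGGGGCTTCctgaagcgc
Penk, last Met-enkephalin copy, codons 262 to 265: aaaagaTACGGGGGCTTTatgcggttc
Pdyn, copy 1, codons 166 to 169: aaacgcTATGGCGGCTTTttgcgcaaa
Pdyn, copy 2, codons 202 to 205: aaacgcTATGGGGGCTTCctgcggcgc
Pdyn, copy 3, codons 221 to 224: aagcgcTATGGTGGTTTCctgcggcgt
Pnoc, nociceptin, codons 141 to 144: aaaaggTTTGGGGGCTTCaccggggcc
The Pnoc core opens with a phenylalanine codon where the others open with a tyrosine codon. The libraries read 3′ ends of transcripts, so none of the counts below refers to these coding copies themselves.

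In the reference annotation (GRCm38, which is the same assembly as mm10), Penk lies at chr4:4133531-4138819 on the minus strand, Pdyn at chr2:129686565-129699844 on the minus strand and Pnoc at chr14:65400673-65425472 on the minus strand. Oprm1 lies at chr10:6758506-7038198 on the plus strand, Oprd1 at chr4:132110726-132144486 on the minus strand, Oprk1 at chr1:5588466-5606131 on the plus strand and Oprl1 at chr2:181715016-181720985 on the plus strand. No stretch of 50 bases in the last 500 bases of each member's longest coding transcript was found in a transcript of another gene. The other annotated 3′ ends were not searched. Oprm1 has 17 annotated coding transcripts with 15 distinct 3′ ends, the most of the 7 members, and overlaps Ipcef1 and Gm10945 on the other strand. Penk overlaps A830012C17Rik on the other strand. Whether the counting used strand is not given in the sources used here, so reads of such overlapping pairs cannot be told apart.

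The libraries held 9248520 to 10502029 counts each. The count column is headed WC plus a number in each library labelled WAS, and WS plus a number in each labelled control, and the sources used here do not say what these headings mean. Groups below follow the labels, and an exchange of the labels would invert all directions given. Libraries also differed in regional markers. The summed level of 16 striatal projection neuron markers was 492, 2809 and 736 CPM (counts scaled to a library total of 1000000) in WAS 1, 2 and 3, and 1532, 1922 and 2057 CPM in control 1, 2 and 3. The sum of 9 thalamus and habenula markers was 807, 334 and 669 CPM in WAS 1, 2 and 3, and 341, 315 and 324 CPM in the controls. WAS 1 and WAS 3 were thus the lowest in striatal and the highest in thalamic markers, and WAS 2 was the highest in striatal markers. In such bulk tissue, fewer cells of a type and less RNA per cell cannot be told apart.

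Penk was the most abundant member and the most unequal. Its counts were 240, 3911 and 862 in WAS 1, 2 and 3, which is 23.8, 423 and 86.3 CPM. In control 1, 2 and 3 they were 2160, 2489 and 2502, which is 206, 240 and 251 CPM. The control libraries lay within a factor of 1.22 of each other. The WAS libraries spanned a factor of 17.7, with WAS 2 above and WAS 1 and WAS 3 below every control, so the groups overlapped. The group means were 178 ± 215 CPM (SD, n = 3) for WAS and 232 ± 23.5 CPM (SD, n = 3) for control. The log2 fold change of WAS against control was -0.42 (SE 0.67, 95% interval -1.91 to 1.06, adjusted p = 0.950 in the quasi-likelihood fit of edgeR, adjusted over all genes after Benjamini and Hochberg), a difference smaller than the spread between the WAS libraries. Ordered by the SD of log2 values over the WAS libraries, Penk stood at place 22 of the 15237 genes tested, and at place 4 of the 9400 genes with a mean of at least 10 CPM. In the control libraries it stood at place 7356 of the 15237.

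Pdyn, the dynorphin precursor, followed the same order of WAS libraries over a narrower range. It had 12.9, 49.8 and 14.6 CPM in WAS 1, 2 and 3 and 26.3, 22.5 and 33.4 CPM in control 1, 2 and 3. WAS 2 was the highest of the 6 libraries and WAS 1 and WAS 3 were the lowest, with a factor of 3.86 between the WAS extremes and 1.48 between the controls. The group means were 25.8 ± 20.8 CPM (SD, n = 3) and 27.4 ± 5.50 CPM (SD, n = 3), and the log2 fold change was -0.13 (SE 0.41, 95% interval -1.03 to 0.77, adjusted p = 0.969 by edgeR).

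Pnoc, the nociceptin precursor, was lowest where Penk and Pdyn were highest. It had 64, 34 and 76 counts in WAS 1, 2 and 3, or 6.36, 3.68 and 7.61 CPM, and 4.19, 5.11 and 5.41 CPM in the controls. Here WAS 2 was the lowest library and WAS 1 and WAS 3 the highest. The exact Poisson 95% intervals, which cover counting error only, were 2.55 to 5.14 CPM in WAS 2 and 6.00 to 9.53 CPM in WAS 3, so those 2 libraries differed by more than counting error. The group means were 5.88 ± 2.01 CPM (SD, n = 3) for WAS and 4.90 ± 0.636 CPM (SD, n = 3) for control, with a log2 fold change of 0.23 (SE 0.29, 95% interval -0.41 to 0.87, adjusted p = 0.932 by edgeR).

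**Figure D1:**
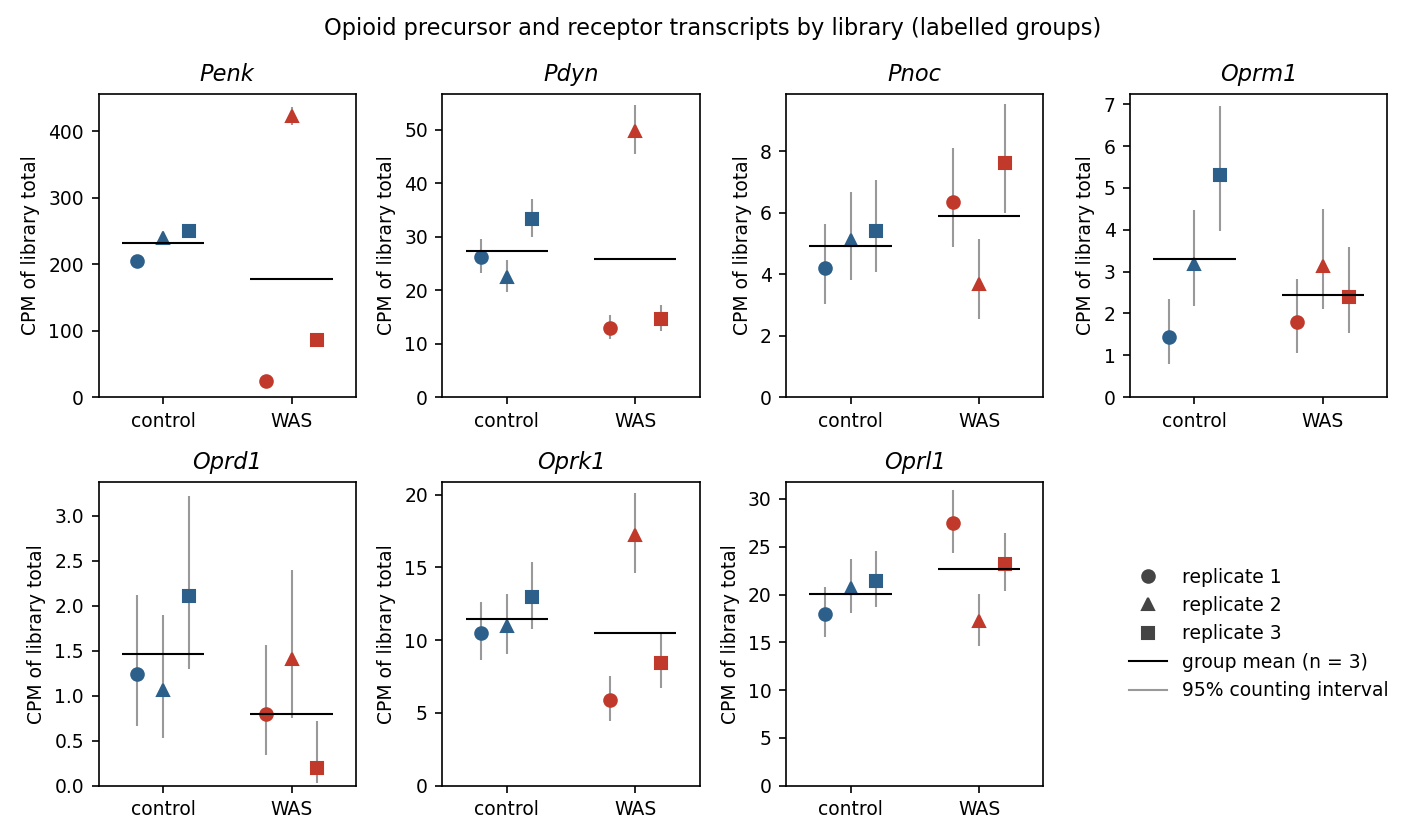
Level of each of the 7 opioid genes in each library, in CPM of the library total (linear axes that start at 0 and differ between panels). Symbols give the replicate number, grey lines the exact Poisson 95% interval and black lines the group mean (n = 3). Penk in WAS 2 (423 CPM) and WAS 1 (23.8 CPM) lies on either side of the 3 controls (206 to 251 CPM), and in Pnoc and Oprl1 WAS 2 is the lowest of the WAS libraries instead of the highest.

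Among the receptors, the kappa receptor Oprk1 followed the order of Penk and Pdyn. It had 5.86, 17.2 and 8.41 CPM in WAS 1, 2 and 3 and 10.5, 11.0 and 12.9 CPM in control 1, 2 and 3. WAS 2 was again above every control and WAS 1 and WAS 3 below every control. The group means were 10.5 ± 5.94 CPM (SD, n = 3) and 11.5 ± 1.30 CPM (SD, n = 3), and the log2 fold change was -0.17 (SE 0.32, 95% interval -0.88 to 0.53, adjusted p = 0.958 by edgeR).

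The nociceptin receptor Oprl1 followed Pnoc. It had 277, 159 and 232 counts in WAS 1, 2 and 3, or 27.5, 17.2 and 23.2 CPM, and 18.0, 20.7 and 21.4 CPM in the controls. WAS 2 was the lowest library and WAS 1 the highest, and the controls lay within a factor of 1.19. The group means were 22.6 ± 5.19 CPM (SD, n = 3) and 20.1 ± 1.82 CPM (SD, n = 3). The log2 fold change was 0.14 (SE 0.17, 95% interval -0.24 to 0.52, adjusted p = 0.929 by edgeR), the narrowest interval among the 7 members.

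The mu receptor Oprm1, the main target of morphine, and the delta receptor Oprd1 had the fewest counts of the 7 members. Oprm1 had 18, 29 and 24 counts in WAS 1, 2 and 3 and 15, 33 and 53 in control 1, 2 and 3. The 2 extremes were both controls, at 1.43 CPM (exact Poisson 95% interval 0.799 to 2.36) and 5.31 CPM (3.98 to 6.95), and the log2 fold change was -0.48 (SE 0.46, 95% interval -1.48 to 0.53, adjusted p = 0.894 by edgeR). The antisense neighbour Ipcef1 had 262, 197 and 199 counts in the WAS libraries and 268, 381 and 365 in the controls, so both genes were highest in control 2 and control 3, while Ipcef1 was lowest in WAS 2 and WAS 3 and Oprm1 in control 1 and WAS 1.

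Oprd1 had 8, 13 and 2 counts in WAS 1, 2 and 3 and 13, 11 and 21 in control 1, 2 and 3. WAS 3 was the lowest library, at 0.200 CPM (exact Poisson 95% interval 0.0243 to 0.724), and control 3 the highest, at 2.10 CPM (1.30 to 3.22). The log2 fold change of -0.91 (SE 0.62, 95% interval -2.27 to 0.44, adjusted p = 0.818 by edgeR) was the furthest from 0 among the members, and only Penk had a wider interval. The difference was within the spread between the libraries.

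None of the 7 members passed an adjusted p of 0.05, as none of all 15237 genes tested did (0%, smallest adjusted p 0.477 by edgeR, whereas DESeq2 called 22 genes, none of them a member). An unadjusted p under 0.05 was reached by 0 of the 7 members, beside 1104 of all genes tested (7.25%, 585 with WAS above and 519 with WAS below control). This count also depended on the fit, since Penk had an unadjusted p of 0.0355 with a replicate block in edgeR, and 4 members were under 0.05 without WAS 2. With a fold change of at least 1.5 required in addition, the count was again 0 of 7, beside 380 genes (2.49%). In no member were the groups without overlap, beside 1855 genes (12.2%). The median log2 fold change of the members was -0.17, with 2 above and 5 below 0, beside 0.00084 over all genes. With 7 members, a share of 0 is near each of these backgrounds.

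Whether Penk and Pdyn passed the threshold depended on WAS 2. Without it, the log2 fold change of Penk was -2.11 (SE 0.33, 95% interval -2.82 to -1.41, adjusted p = 0.00226 by edgeR) and that of Pdyn was -1.03 (SE 0.19, adjusted p = 0.00677 by edgeR), both past the threshold with 2 WAS libraries against 3 controls. In the same fit Oprk1 had -0.72 (unadjusted p = 0.00842, adjusted p = 0.138 by edgeR), Oprd1 -1.57 (unadjusted p = 0.0386, adjusted p = 0.322 by edgeR) and Oprm1 -0.69 (adjusted p = 0.638 by edgeR), while Pnoc had 0.47 and Oprl1 0.30. In that fit 491 of all genes passed the adjusted threshold, and all 14 striatal markers tested were among them, each lower in WAS. Without WAS 1, the values of Penk (0.091), Pdyn (0.19) and Oprk1 (0.11) lay above 0 and that of Oprl1 (-0.026) below 0, none past the threshold. Without WAS 3 or control 3 Pdyn also lay above 0 (0.15 and 0.045), and without control 3 Oprm1 did (0.050).

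**Figure D2:**
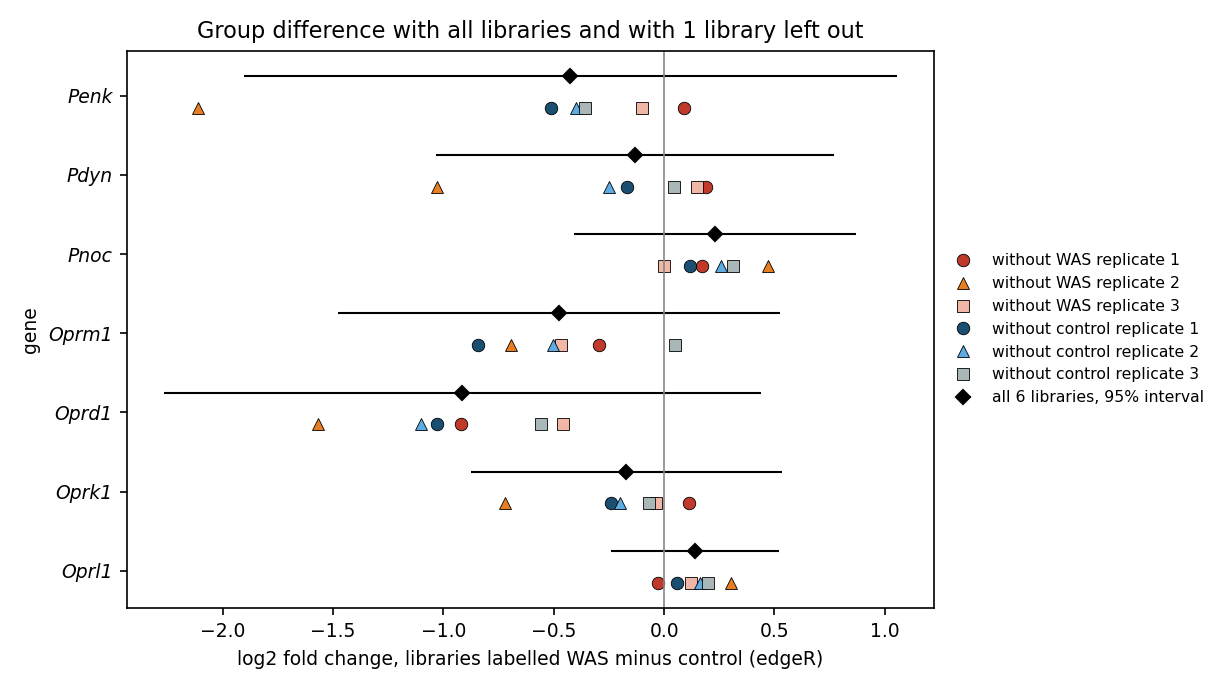
Log2 fold change of each opioid gene, libraries labelled WAS minus control, from the edgeR fit. Black diamonds and lines give the estimate and 95% interval with all 6 libraries, and coloured symbols below them give the estimate with 1 library left out. All 7 intervals span 0, and the fit without WAS replicate 2 moves Penk to -2.11 and Pdyn to -1.03.

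Penk and Pdyn are transcripts of striatal projection neurons, and both were lowest in WAS 1 and WAS 3 and highest in WAS 2, as the summed striatal markers were. Of the 16 markers listed, 14 passed the filter. All 14 had a log2 fold change below 0 (median -0.51), and none had an unadjusted p under 0.05. Between WAS 2 and WAS 1, these 14 markers differed by a factor of 2.19 (Gnal, the striatal stimulatory G protein subunit) to 101 (Adora2a, the adenosine receptor of indirect pathway neurons), with a median factor of 8.22. Penk differed by 17.7, next to Ppp1r1b, the dopamine signalling protein DARPP-32 (15.0), and Drd1, the dopamine receptor of direct pathway neurons (10.5). Pdyn differed by 3.86 and Oprk1 by 2.93, less than most of the striatal markers. Oprl1 and Pnoc were lower in WAS 2 than in WAS 1, by factors of 0.625 and 0.578.

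The part of the regional markers in these differences was not tested beyond the ratios given here. The defining marker Drd2 had 1 count in all 6 libraries together and Gpr6 had none, although both mark indirect pathway neurons, so a count near 0 in these files does not by itself show that a transcript is absent. The remaining regional lists were measured beside the members. The sum of 8 cortex and hippocampus projection neuron markers was 7151, 8222 and 6285 CPM in the WAS libraries and 9098, 9900 and 8585 CPM in the controls, and 5 of the 8 were lower at an unadjusted p under 0.05. Interneurons also make Penk and Pnoc. The sum of 10 genes listed as interneuron markers ran from 1435 CPM in WAS 1 to 1777 CPM in WAS 2, the extremes of the 6 libraries. This list includes general GABAergic genes, so its sum is no measure of interneurons alone. The sum of 10 hypothalamus markers was 14.0, 22.6 and 9.52 CPM in WAS 1, 2 and 3 and 3.05, 2.02 and 53.9 CPM in control 1, 2 and 3. The sum of 6 pituitary markers was at most 8.54 CPM.

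**Figure D3:**
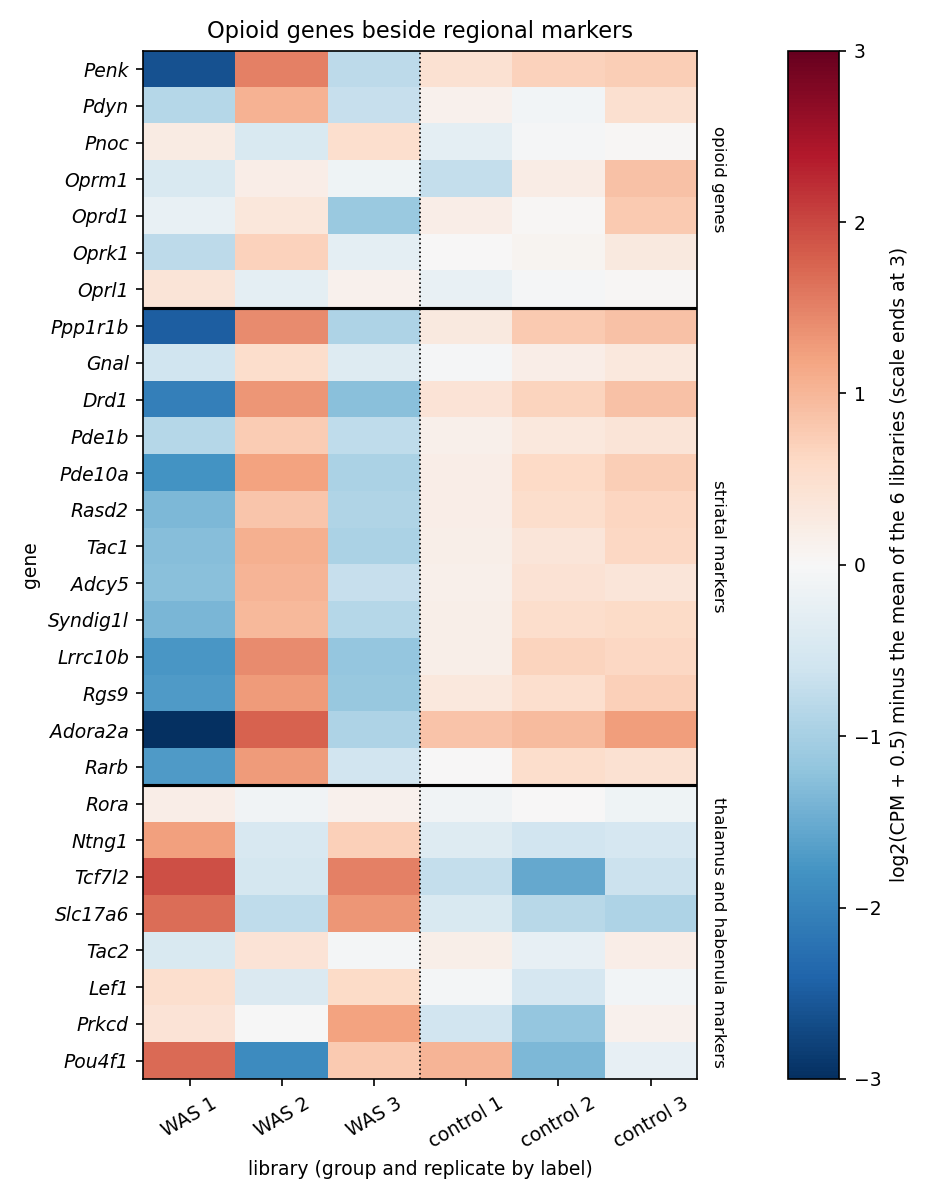
Heat map of the 7 opioid genes, 13 of the 14 striatal markers and the 8 thalamus and habenula markers that passed the filter (rows) in the 6 libraries (columns). Colour gives the log2 CPM, with a small constant added, minus the gene's mean over the 6 libraries, and the scale ends at 3 on either side. Penk, Pdyn and Oprk1 share the blue of WAS 1 and WAS 3 and the red of WAS 2 with the striatal markers, while Pnoc and Oprl1 show the opposite colours.

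A ratio within a library does not depend on how libraries are scaled. The ratio of Penk to the summed striatal markers was 0.0484, 0.151 and 0.117 in WAS 1, 2 and 3 and 0.134, 0.125 and 0.122 in control 1, 2 and 3. WAS 1 was the lowest and WAS 2 the highest, and WAS 3 was close to the controls. The mean log2 ratio was -3.40 ± 0.86 (SD, n = 3) in WAS and -2.98 ± 0.07 (SD, n = 3) in control, with a difference of -0.42 (exact two-sided permutation test, p = 0.7) that turned to 0.067 without WAS 1. With 3 against 3 libraries this test cannot give a p below 0.1.

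The ratio of Pdyn to the summed striatal markers was 0.0262, 0.0177 and 0.0199 in WAS 1, 2 and 3 and 0.0172, 0.0117 and 0.0162 in control 1, 2 and 3. All 3 WAS libraries lay above all 3 controls. The mean log2 ratio was -5.57 ± 0.29 (SD, n = 3) in WAS and -6.07 ± 0.30 (SD, n = 3) in control. The difference was 0.50 (exact two-sided permutation test, p = 0.1, the smallest p the design allows). No difference of this kind could pass 0.05 with this design. WAS 1 and WAS 3, with the lowest summed markers, had the highest ratios. Over the 6 libraries, log2 Pdyn rose by 0.71 per unit of log2 of the summed markers (least-squares slope). Pdyn thus changed less than the sum, and the part of this in the group difference was not tested. The gap between the nearest libraries of the groups was narrow, at ratios of 0.0177 and 0.0172. Against single markers of direct pathway neurons, Pdyn to Drd1 was 0.371, 0.136 and 0.240 in the WAS libraries and 0.136, 0.0986 and 0.124 in the controls, and Pdyn to Tac1, the substance P precursor, was 0.428, 0.323 and 0.385 against 0.317, 0.238 and 0.295.

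The ratio of Penk to Pdyn counts was 1.85, 8.48 and 5.90 in WAS 1, 2 and 3 and 7.83, 10.6 and 7.51 in control 1, 2 and 3. WAS 1 stood far below the others, and WAS 2 lay between the controls. The mean log2 ratio was 2.18 ± 1.15 (SD, n = 3) in WAS and 3.10 ± 0.27 (SD, n = 3) in control, with a difference of -0.92 (exact two-sided permutation test, p = 0.3). Penk to Ppp1r1b was the steadiest ratio listed, at 0.594, 0.702 and 0.742 in the WAS libraries and 0.747, 0.625 and 0.607 in the controls, a pair chosen after the values were seen. Penk to Adora2a was 48.0, 8.41 and 11.8 in the WAS libraries and 7.74, 8.49 and 7.19 in the controls, where the value of WAS 1 rests on 5 counts of Adora2a.

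**Figure D4:**
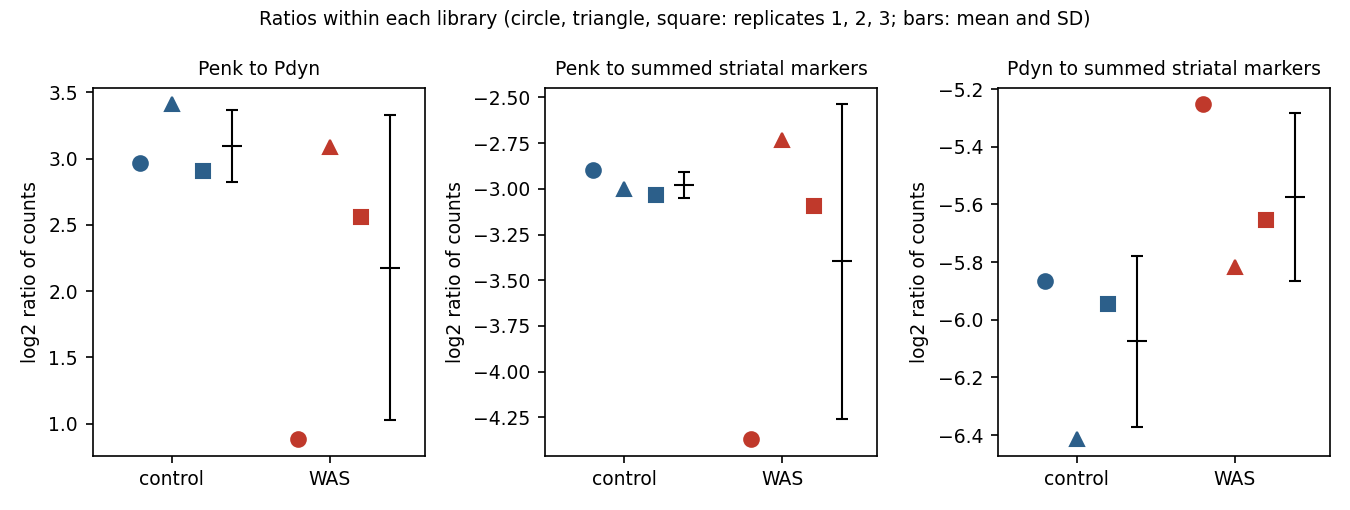
Log2 ratios of counts within each library for Penk to Pdyn, Penk to the summed striatal markers and Pdyn to the summed striatal markers (vertical axes differ and do not start at 0). Symbols give the replicate, and bars the mean and SD of 3 libraries. WAS 1 is the lowest library in the first and second panels, and in the third all 3 WAS libraries lie above the 3 controls.

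The make-up of the opioid transcripts differed between libraries in the same way. Of the counts of the 3 precursors, Penk took 55.3% in WAS 1 (Wilson 95% interval 50.6 to 59.9), 88.8% in WAS 2 and 79.5% in WAS 3, and 87.1%, 89.7% and 86.6% in control 1, 2 and 3. Pnoc took 14.7%, 0.772% and 7.01% in the WAS libraries and 1.77% to 1.91% in the controls. Of the counts of the 4 receptors, Oprl1 took 76.5% in WAS 1 (Wilson 95% interval 71.9 to 80.6), 44.2% in WAS 2 and 67.8% in WAS 3, and 57.8%, 57.6% and 51.3% in the controls. Oprk1 took 16.3%, 44.2% and 24.6% in the WAS libraries and 30.6% to 33.6% in the controls. In WAS 1 and WAS 3 the shares of Oprl1 and Pnoc were thus above, and those of Penk and Oprk1 below, every control.

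Over the 6 libraries the members ranked, by mean CPM of 3′ end counts without division by length, as Penk (205 ± 140, SD, n = 6), Pdyn (26.6 ± 13.7), Oprl1 (21.4 ± 3.76), Oprk1 (11.0 ± 3.88), Pnoc (5.39 ± 1.44), Oprm1 (2.87 ± 1.39) and Oprd1 (1.13 ± 0.635). Neighbours in this order were not always apart. Oprl1 exceeded Pdyn in WAS 1 and WAS 3 and lay below it in the other 4 libraries. Oprk1 equalled Oprl1 in WAS 2, with 159 counts each, and Pnoc exceeded Oprk1 in WAS 1, with 64 against 59 counts. In control 3, Pnoc and Oprm1 differed by 54 against 53 counts, and in control 1, Oprm1 and Oprd1 by 15 against 13, both within counting error.

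The genes whose levels were most alike to each member were sought among the 9396 other genes with a mean of at least 10 CPM, by Pearson's r of log2 CPM over the same 6 libraries, and are given as a description. For Penk they were Chsy3 (r = 0.997), Ppp1r1b (0.995) and Slc35d3 (0.995). For Pdyn they were Gucy1a3 (0.995), Nexn (0.993) and Pou3f4 (0.992), and for Oprk1 they were Cyld (0.996), Bccip (0.992) and Plxnd1 (0.988). For Oprl1 they were Ccdc184 (0.997), Dnm3 (0.990) and Npm1 (0.988). Many genes were nearly as close, with r over 0.9 for 332 genes with Penk, 140 with Pdyn, 222 with Oprk1 and 131 with Oprl1. All these values share the same libraries, and the 9 genes named for Penk, Pdyn and Oprk1 were each lowest in WAS 1 and highest in WAS 2. The 3 members under 10 CPM were not searched. Among the members, r was 0.966 for Penk and Oprk1, 0.897 for Penk and Pdyn and -0.866 for Penk and Oprl1.

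Of 42 genes that cut the precursors into peptides, break the peptides down or carry the receptor signal, 41 were tested, 12 with a log2 fold change above 0 and 29 below (median -0.071). At an unadjusted p under 0.05, 0 were higher and 4 were lower in WAS, beside 7.25% of all genes in either direction, and none passed after adjustment. The number depended on the fit, with 2 (1 higher, 1 lower) after total-count scaling, 0 with limma on quantile-normalized values, 9 (1 higher, 8 lower) with a replicate block and 11 (3 higher, 8 lower) without WAS 2.

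In the processing list, the abundant enzyme was Cpe, the carboxypeptidase that trims the cut peptides, at 2030, 1674 and 1938 CPM in the WAS libraries and 1722, 1560 and 1687 CPM in the controls (log2 fold change 0.15, SE 0.09, adjusted p = 0.777 by edgeR). Pcsk1n, an inhibitor of the convertase Pcsk1, came next at 252 to 323 CPM over the 6 libraries. The convertase Pcsk2, which cleaves precursors at pairs of basic residues, had 181, 275 and 205 CPM in the WAS libraries and 280.0, 292 and 236 CPM in the controls. It was the 1 of 8 processing genes with an unadjusted p under 0.05 (log2 fold change -0.32, SE 0.14, unadjusted p = 0.0426, adjusted p = 0.681 by edgeR), and the groups overlapped through WAS 2.

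In the breakdown list 0 of 8 genes had an unadjusted p under 0.05. Mme, the neprilysin that degrades enkephalins, had 6.56, 21.1 and 13.2 CPM in WAS 1, 2 and 3 and 12.8, 15.8 and 17.9 CPM in the controls (log2 fold change -0.23, SE 0.32, adjusted p = 0.941 by edgeR), with WAS 1 lowest and WAS 2 highest as for Penk. The most abundant were Npepps, the puromycin-sensitive aminopeptidase, at 206 to 234 CPM and Ece1, an endothelin-converting enzyme, at 52.0 to 71.7 CPM.

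In the signalling list, 25 of 26 genes were tested and 3 were lower at an unadjusted p under 0.05. Rgs4, which speeds the shut-off of inhibitory G proteins, had 435, 729 and 422 CPM in the WAS libraries and 750, 789 and 691 CPM in the controls (log2 fold change -0.53, SE 0.18, unadjusted p = 0.0116, adjusted p = 0.581 by edgeR). WAS 2 lay among the controls and WAS 1 and WAS 3 below them. The other 2 were Adcy1, an adenylyl cyclase (-0.27, SE 0.11, unadjusted p = 0.0317 by edgeR), and Kcnj3, a subunit of the potassium channel that these receptors open (-0.24, SE 0.10, unadjusted p = 0.0440 by edgeR). The most abundant were the G protein subunits Gnao1, at 1364 to 1556 CPM, and Gnb1, at 834 to 923 CPM. Rgs9 and Adcy5, both enriched in the striatum, had their lowest values in WAS 1 and their highest in WAS 2, at 8.34 and 68.3 CPM for Rgs9 and 27.2 and 132 CPM for Adcy5.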

How the data were processed

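Forebrain RNA of 6 mice was analysed, 3 libraries labelled WAS and 3 labelled control, 1 per mouse. The authors prepared the libraries with the QuantSeq 3′ mRNA-Seq kit, aligned the reads with Bowtie2 and deposited read counts per gene from unique and multiple alignments, counted with Bedtools. The submitters' processing notes name mm10 and bedtools, and the gene annotation is not given in the sources used here. Read counts carry no molecular identifiers, so intervals cover counting error only. The quantile normalization named by the study is not in the deposited counts. Metabolomics data were not analysed here.

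Groups were taken from the labels. The counts were fitted over all genes with edgeR 4.0.16 in R 4.3.3 (TMM scaling, quasi-likelihood test without covariates, two-sided, Benjamini-Hochberg adjustment), after keeping genes with a mean log2(quantile-normalized count + 1) of at least 2. Of the 23282 entries, 44 repeat a symbol. Rn45s took 4.96% to 7.32% of the counts. A gene was called at an adjusted p of 0.05, and counts at an unadjusted p under 0.05 are given beside the share of all genes. CPM values are counts scaled to a library total of 1000000. Ratios within libraries were compared by exact two-sided permutation tests in R, whose smallest p is 0.1. Wilson intervals were computed with SciPy 1.17.1. Fits were tested on simulated data. Alternatives were total-count scaling, DESeq2 1.42.0, limma 3.58.1 on quantile-normalized log2 counts, no filter, a replicate block, mean log2 marker levels in the ratios and leaving out each library.

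The members and gene lists were chosen with earlier results of these data known. Named genes are the 7 members, the 3 genes most alike to each member of at least 10 CPM, and from each list the genes with an unadjusted p under 0.05 and the 2 most abundant (the latter given only for the processing, breakdown and signalling lists). Other genes named (Mme, Rgs9, Adcy5, Drd1, Tac1, Adora2a, Gnal and the overlapping genes) and the single-marker ratios were chosen after the values were seen. Symbols were used as listed, with Drd1a listed as Drd1. Positions and coding sequences are from GENCODE M21 on GRCm38, found for all 7 members. Some single marker genes are not reported here, though they count in the list totals.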

Additional observations from a re-analysis of the deposited data

How the results depend on the processing

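Each member kept its direction and stayed short of the adjusted threshold under total-count scaling, DESeq2 (1 p not given over all genes), limma, no filter and the replicate block, although limma gave -1.29 for Penk and -0.39 for Pdyn, against -0.42 and -0.13. With 1 library left out, the log2 fold change ran from -2.11 to 0.091 for Penk, -1.03 to 0.19 for Pdyn (0.15 without WAS 3, 0.045 without control 3), 8.1e-05 to 0.47 for Pnoc, -0.84 to 0.050 for Oprm1, -1.57 to -0.46 for Oprd1, -0.72 to 0.11 for Oprk1 and -0.026 to 0.30 for Oprl1. The values above 0 for Penk, Pdyn and Oprk1 and below 0 for Oprl1 came without WAS 1, and that above 0 for Oprm1 without control 3. The adjusted p passed only for Penk and Pdyn without WAS 2. The difference in log2 ratio ran from -1.37 to -0.27 for Penk to Pdyn, -0.75 to 0.067 for Penk to striatal markers and 0.33 to 0.62 for Pdyn to striatal markers, and mean log2 marker levels gave -0.38 and 0.54 for the last 2.

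Over all genes, calls with 1 library left out ran from 264 to 825 by unadjusted p and fold change, 0 to 491 by adjusted p and 623 to 2084 by unadjusted p (2084 without WAS 2, 653 without WAS 3, 623 without control 2). DESeq2 gave 22 by adjusted p. Total-count scaling moved the median log2 fold change to 0.038 and the split of unadjusted calls to 831 higher and 337 lower. Opioid pathway genes with an unadjusted p under 0.05 numbered 2 with total-count scaling, 0 with limma and 1 to 11 with 1 library left out (11 without WAS 2, 1 without WAS 3, 2 without control 1 or control 2). Such striatal markers numbered 0 to 14, the 14 without WAS 2. The cause of these shifts was not tested.

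Same-numbered libraries correlated by 0.067, 0.085 and 0.087 in their deviations, so the numbers were not taken as pairs, although each WAS library correlated best with its own number. With the replicate block, 50 genes passed the adjusted threshold, and 9 pathway genes and 12 striatal markers had an unadjusted p under 0.05. Penk then had -1.26 (unadjusted p = 0.0355, adjusted p = 0.481 by edgeR). Depth was lowest for Oprm1 and Oprd1, with 172 and 68 counts over all libraries.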

Other observations

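Genes outside the 7 members that bear on opioid peptides or receptors were few. Pomc, the precursor of beta-endorphin and of pituitary hormones, had 19, 34 and 14 counts in WAS 1, 2 and 3 and 13, 12 and 10 in control 1, 2 and 3. All WAS libraries lay above all controls (12.2% of all genes tested had groups without overlap), with a log2 fold change of 0.99 (SE 0.46, 95% interval -0.03 to 2.00, adjusted p = 0.697 by edgeR). Pituitary transcripts were also seen in WAS 1, where Gh, the growth hormone gene, had 45 counts and Cga, the gene of the shared glycoprotein hormone subunit, had 8. Gh had 3 and 0 counts in WAS 2 and WAS 3 and 2, 1 and 0 in the controls, and Cga had 0 in the other 5 libraries. Lhb, the luteinizing hormone subunit gene, had 8, 6 and 0 counts in the WAS libraries and 8, 3 and 2 in the controls. The 6 pituitary markers, Pomc included, summed to 8.54, 5.08 and 1.70 CPM in the WAS libraries and to 2.29, 1.73 and 1.30 CPM in the controls. Pomc itself gave 19 of the 86 counts of this sum in WAS 1, 34 of 47 in WAS 2 and 14 of 17 in WAS 3. In control 1, 2 and 3 it gave 13 of 24, 12 of 18 and 10 of 13, so the sum is no separate measure beside Pomc. The part of pituitary tissue in the Pomc counts was not tested. Rtp4, a chaperone that brings mu and delta receptor pairs to the cell surface, had 51, 55 and 42 counts in the WAS libraries and 20, 39 and 35 in the controls. Its groups also did not overlap (log2 fold change 0.69, SE 0.32, adjusted p = 0.688 by edgeR). Ogfr, Ogfrl1 and Opcml, named for an opioid growth factor or for opioid binding, had groups that overlapped and log2 fold changes of -0.07, -0.08 and -0.17.

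Markers of the choroid plexus, the tissue that makes cerebrospinal fluid, varied between mice of both groups. Its 8 markers summed to 53.2, 1204 and 933 CPM in WAS 1, 2 and 3 and to 1250, 17.4 and 949.8 CPM in control 1, 2 and 3. In control 2, the lowest library in these markers, Pdyn (22.5 CPM) and Oprd1 (1.06 CPM) were below the other 2 controls, and the other 5 members lay between them. Of the remaining regional lists, the genes with an unadjusted p under 0.05 in edgeR were the thalamic Tcf7l2 (log2 fold change 2.20), Slc17a6 (1.78), Ntng1 (1.12) and Prkcd (1.09), the dentate C1ql2 (1.97) and Tdo2 (1.40), the deep layer gene Nr4a2 (0.65) and Calb2 (1.44). On the lower side they included the cortical Tbr1 (-0.43), Nrgn (-0.42), Camk2a (-0.33) and Slc17a7 (-0.32). Cck (-0.27), a peptide gene from the interneuron list that is not particular to interneurons, was also lower. None passed after adjustment.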
